A study of Mus musculus with 18 samples.

Results

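The genes of mitosis and of the spindle checkpoint were followed in mouse embryonic stem cells that lost leukaemia inhibitory factor (LIF), with or without cyclosporin A (CsA), and in cells that switched on an active calcineurin. The set held 34 named genes, defined by gene symbol. A gene counted as measured when a probe bearing its symbol in the platform annotation was detected, at a detection p under 0.05, on both arrays of at least 1 group, and the brightest such probe stood for it. This left 27 genes of the 10980 genes measured on these arrays. The probes for Ccna2, Ccnb2, Espl1 and Kif11 were never detected on both arrays of a group, and Ccnb1, Cenpf and Kif20a were not analysed here.

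All samples were total RNA of embryonic stem cells of strain 129P2/Ola, measured on Illumina Sentrix Mouse-6 v1.1 BeadChips, with 18 arrays in 9 groups of 2. CGR8 cells, a line kept undifferentiated by LIF, were sampled at days 0, 1 and 3 of LIF withdrawal, and other CGR8 cells at the same days of LIF withdrawal with CsA, a drug that inhibits the phosphatase calcineurin. The labels do not say how long the day 0 cells with CsA had been exposed to the drug. The third course used ideltaCnAES cells, labelled with the same strain, in which withdrawal of tetracycline (Tc) induces deltaCnA, a calcineurin A subunit that is active without its usual regulation, and they were sampled at days 0, 1 and 4 of that withdrawal. The labels do not give the LIF condition of these cells, nor whether the line is a single clone. They also do not say that the replicates of a group were separate cultures, so the p-values below rest on a spread between arrays that may be technical in part or in whole.

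Mitosis separates the copied chromosomes into daughter cells. Cdk1 bound to a B-type cyclin drives entry, the kinases Plk1, Aurka and Aurkb organise the spindle and the chromosomes, and kinetochores tie each chromosome to spindle microtubules. The spindle checkpoint, built around Bub1, Bub1b, Bub3, Mad2l1 and Ttk, holds back Cdc20 and the anaphase-promoting complex until every kinetochore is attached. When it is satisfied, securin (Pttg1) is degraded, separase cuts cohesin and the chromatids part. Most of these genes are transcribed in a wave late in the cell cycle, through CCAAT boxes and a cell cycle homology element in their promoters, and embryonic stem cells are known for a fast cycle with short gap phases. In bulk RNA, fewer cells in mitosis and less RNA per mitotic cell cannot be told apart.

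Promoter sequence is shown for the 4 members that changed most in sum over all comparisons, among those whose RefSeq entry could be shown, to set the letters beside the genes the results turn on. Each runs 5′ to 3′ on the gene's strand, from 250 bases before the annotated start to 30 bases after it, in build GRCm38.p6. Capitals mark the cell cycle homology element TTTGAA, on either strand (TTCAAA when on the other), and the CCAAT box, on either strand. Nuf2 lies at chr1:169531435-169531714 on the minus strand, Bub3 at chr7:131560120-131560399 on the plus strand, Pttg1 at chr11:43425952-43426231 on the minus strand and Spc25 at chr2:69206184-69206463 on the minus strand.
Bub3: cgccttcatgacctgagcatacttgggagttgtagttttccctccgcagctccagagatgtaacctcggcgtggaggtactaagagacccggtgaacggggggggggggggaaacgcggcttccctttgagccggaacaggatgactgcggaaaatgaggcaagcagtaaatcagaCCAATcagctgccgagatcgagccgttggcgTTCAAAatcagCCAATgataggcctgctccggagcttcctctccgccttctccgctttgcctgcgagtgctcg
Spc25: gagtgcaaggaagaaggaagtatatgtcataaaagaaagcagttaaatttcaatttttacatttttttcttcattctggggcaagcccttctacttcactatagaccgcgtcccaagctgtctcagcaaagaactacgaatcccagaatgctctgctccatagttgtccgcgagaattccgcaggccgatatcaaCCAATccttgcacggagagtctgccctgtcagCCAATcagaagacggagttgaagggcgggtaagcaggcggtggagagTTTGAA
Nuf2: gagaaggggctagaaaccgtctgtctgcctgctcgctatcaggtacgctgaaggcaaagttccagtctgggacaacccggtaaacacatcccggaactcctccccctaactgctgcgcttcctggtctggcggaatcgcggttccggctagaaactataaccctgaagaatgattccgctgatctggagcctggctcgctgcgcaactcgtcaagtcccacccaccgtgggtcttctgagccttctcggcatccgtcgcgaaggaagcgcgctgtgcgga
Pttg1: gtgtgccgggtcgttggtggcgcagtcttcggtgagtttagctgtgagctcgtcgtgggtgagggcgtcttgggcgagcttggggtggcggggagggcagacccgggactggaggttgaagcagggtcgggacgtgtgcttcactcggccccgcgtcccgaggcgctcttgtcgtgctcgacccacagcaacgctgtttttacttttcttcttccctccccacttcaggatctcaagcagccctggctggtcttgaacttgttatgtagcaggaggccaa
The Bub3 window held CCAAT starting 74 and 32 bases before the start and TTTGAA on the other strand, beginning 43 bases before it. The Spc25 window held CCAAT starting 55 and 23 bases before the start and TTTGAA beginning 25 bases into the transcript. The windows of Nuf2 and Pttg1 held neither run of letters. Of the 27 measured members, 23 had a promoter entry, and the motifs do not overlap each other. TTTGAA was in 11 of the 23 windows (47.8%) against 17.4% of the windows of 27025 genes, and CCAAT was in 17 (73.9%) against 36.6%. Both were in 10 of the 23 (43.5%), against 6.54% of those 27025 genes. That background was not limited to the genes measured on these arrays, while the members had to be detected. Each gene was read from 1 promoter entry, though Bub3, Ect2 and Prc1 had 2. These matches describe letters and are not binding sites.

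The arrays were alike in quality. Mean intensity ran from 286.9 to 484.0 across arrays, between 40.4% and 44.1% of the probes were detected, and the correlation between replicates, across genes that are not independent, was 0.992 to 0.996. The lowest intensities lay between -57.95 and -47.00 on the deltaCnA arrays and between -29.37 and -23.71 on the others, so the deltaCnA arrays stood apart at the dim end. The number of arrays limits the precision. The embryonic stem cell markers Pou5f1, Sox2, Nanog, Zfp42, Esrrb, Utf1, Sall4 and Fbxo15 were detected on all 18 arrays. Of 8 fibroblast markers, 6 were detected on 0 arrays, Dcn was detected on 6 and Thy1 on 18. The summed level of 9 stem cell markers was 48295 to 48401 at day 0 of LIF withdrawal and 23430 to 25872 at day 3. With CsA it was 49220 to 51159 at day 0 and 41413 to 41870 at day 3. The markers did not fall together without CsA. Esrrb (14.04 and 12.18), Nanog (13.06 and 11.63) and Fbxo15 (13.09 and 11.90) had lower group means at day 3 than at day 0. Sox2, Zfp42 and Tdgf1 were lower too. Pou5f1 (12.83 and 12.74) and Sall4 (10.96 and 10.98) hardly differed, and Utf1 was higher at day 3 (11.08 and 11.43). The summed level of 6 mesoderm and muscle markers was 295.6 to 295.8 at day 0 and 2309 to 2781 at day 3 without CsA. That sum was carried by Acta2, a smooth muscle actin, whose group mean was 5.03 at day 0 and 11.18 at day 3. Mesp1 (5.04 and 4.68), Myl7 (6.09 and 4.74) and Tnnt2 (5.71 and 4.87) had lower means at day 3, Tbx6 a higher one (6.45 and 6.88), and Hand1, at 4.35 and 4.39, was detected on 0 arrays. The summed level of 5 neuroectoderm markers was 250.3 to 257.3 at day 0 and 589.8 to 713.7 at day 3 without CsA. Pax6 (6.29 and 8.65) and Nes (4.60 and 6.61) had higher means at day 3. In deltaCnA cells at day 0 that sum was 393.3 to 459.6, with Pax6 at 7.88. The sum of 7 primitive endoderm markers was 296.3 to 300.7 at day 0 and 310.0 to 342.0 at day 3 without CsA, and 385.9 to 408.1 at day 3 with CsA. The part of these markers in the results was not tested.

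Levels are log2 of background-corrected, quantile normalized intensity, on which 1 unit is a doubling, and changes are differences of group means with the standard error of the fit. An offset of 16 was added in the background correction, so folds of dim probes are understated, and levels of different probes are not compared. Of the 27 members, 26 were detected on all 18 arrays. Nek2, a centrosome kinase, was detected on 2 arrays, both from deltaCnA cells at day 0. The members moved within a narrow range. The distance between a gene's highest and lowest group mean was 0.61 at the median member and 0.76 at the median of all genes, and it was under 1 for 24 of 27 members and 67.4% of all genes. The median difference between replicates was 0.13 for members and 0.16 for all genes. Cenpe, the kinetochore motor, had the smallest range, 0.20, and Nuf2, a microtubule-binding subunit of the kinetochore, had the widest, 1.61. By group mean, 10 members were highest at day 0 and 10 at day 1 of LIF withdrawal without CsA, and 0 were highest in any CsA group. The lowest mean fell at day 3 with CsA for 9 members, at day 3 without CsA for 6 and at day 0 with CsA for 4. The matching counts of all genes were not computed, so these counts of highest and lowest groups have no background beside them.

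**Figure D1:**
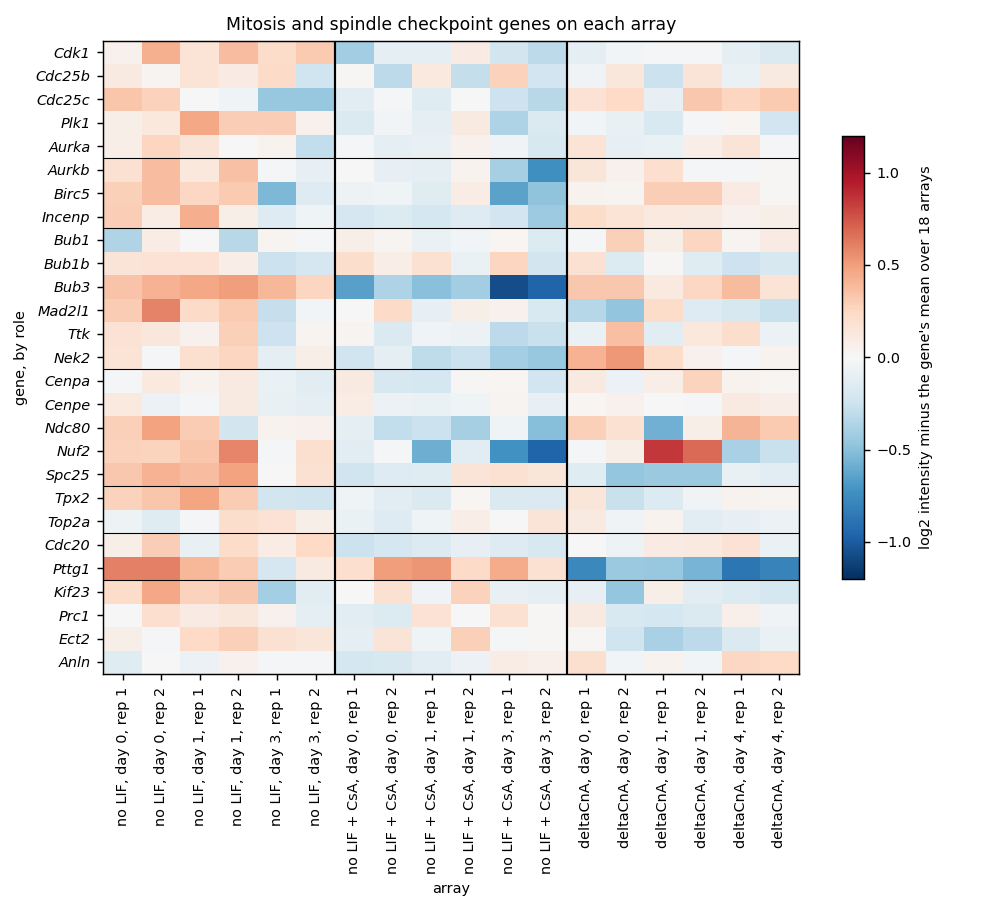
Log2 intensity of the 27 measured genes (rows, grouped by role) on each of the 18 arrays (columns), as the difference from the gene's mean over all arrays. Bub3 is low on all 6 CsA arrays, Pttg1 on all 6 deltaCnA arrays, and 24 of the 27 genes have group means less than 1 apart.

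Comparisons were contrasts in 1 linear model (limma), with p-values adjusted by the Benjamini-Hochberg method over all 10980 genes, and a gene was called at an adjusted p under 0.05. Comparisons of different days within a course share that course's day 0 arrays, and comparisons with CsA share arrays with the LIF course. The comparison of the deltaCnA line with CGR8 cells also uses the day 0 arrays of LIF withdrawal without CsA. Calls of the same gene in comparisons that share arrays are not independent. The members were called most often at day 3 of LIF withdrawal and in the 3 comparisons of CsA against no CsA. At day 3 of LIF withdrawal 33.3% of members were called, against 38.2% of all genes. With CsA against no CsA, 25.9%, 22.2% and 22.2% of members were called at days 0, 1 and 3. The shares of all genes there were 13.2%, 10.8% and 38.1%. Of the 39 called results of members over the 12 comparisons, 36 were lower and 3 were higher. The matching split of all genes was not pooled, so these counts have no background beside them. They include the interaction of Spc25 and the undetected Nek2 with CsA at day 1, and some comparisons share arrays. Only 12 of the 39 held their call in all the fits that left out 1 array of a group compared and in all the other settings run. These were Cdc25c, Birc5 and Tpx2 at day 3 of LIF withdrawal, Birc5 and Nuf2 at day 3 with CsA, Bub3 with CsA at each of the 3 days, Nuf2 and Cdk1 with CsA at day 3, and Pttg1 and Mad2l1 in the deltaCnA line.

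**Figure D2:**
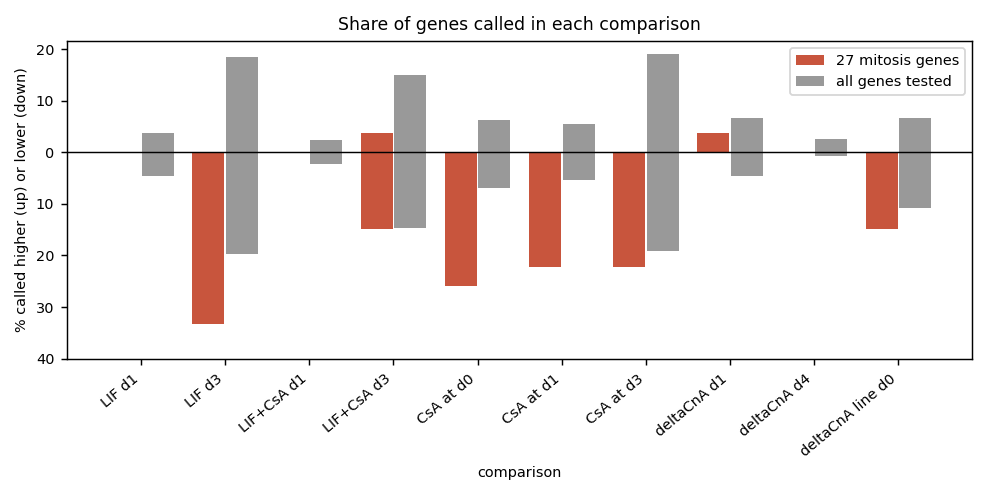
Percentage of genes called higher (above 0) or lower (below 0) at an adjusted p under 0.05 in 10 comparisons, for the 27 measured genes and for all 10980 genes. The members' bars lie below 0 except for 1 gene each at day 3 of LIF withdrawal with CsA and day 1 of deltaCnA induction, while the bars of all genes extend both ways.

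After 1 day of LIF withdrawal no mitotic gene passed the test. Of the 27 members 0 were called by limma, and 2 had an unadjusted p under 0.05, as had 2148 of all 10980 genes. Among all genes 8.42% were called, 3.72% higher and 4.69% lower. The members' median change was 0.02 and that of all genes -0.01. Plk1, the polo-like kinase, read 12.52 and 12.57 at day 0 and 12.91 and 12.75 at day 1. Its arrays did not overlap between the days, but its change of 0.28 ± 0.12 had an adjusted p of 0.17. Cdc25c, a phosphatase that activates Cdk1, changed by -0.33 ± 0.13 (adjusted p = 0.16).

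By day 3 of LIF withdrawal 9 members had fallen and 0 had risen. They were Cdc25c, all 3 measured subunits of the chromosomal passenger complex (Birc5, Aurkb and Incenp), the checkpoint genes Mad2l1 and Bub1b, the spindle factor Tpx2, securin (Pttg1) and the central spindle motor Kif23. The falls ran from 1.23-fold to 1.69-fold. The share lower was 33.3% of members, against 19.8% of all genes lower, 18.4% higher and 38.2% in either direction. The median change was -0.18 among members and -0.05 among all genes, and 21 of 27 members had a change below 0. So had 5975 of all 10980 genes. All arrays of day 3 lay below all arrays of day 0 for 16 members and above for 2, against 34.96% and 29.9% of all genes. Leaving out replicate 2 of day 0 took the count to 5, and leaving out replicate 1 of day 3 took it to 4.

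Among the entry genes, Cdc25c read 9.30 and 9.24 at day 0, 8.97 and 8.92 at day 1 and 8.51 and 8.51 at day 3. Each later day lay below the one before, with no overlap. The fall by day 3 was 0.76 ± 0.13 on the log2 scale, or 1.69-fold (adjusted p = 6.9e-05). Cdk1, the kinase that drives mitotic entry, read 11.77 and 12.15 at day 0 and 11.93 and 12.03 at day 3. Its day 3 arrays lay between those of day 0, and the change was 0.02 ± 0.13 with a 95% interval from -0.23 to 0.28. Plk1 read 12.74 and 12.50 at day 3, which overlapped day 0, and changed by 0.07 ± 0.12 (adjusted p = 0.67). Aurka, the centrosomal Aurora kinase, read 12.16 and 12.34 at day 0 and 12.12 and 11.79 at day 3. Those arrays did not overlap, and the change of -0.30 ± 0.12 missed the threshold (adjusted p = 0.062). Cdc25b, another activator of Cdk1, changed by -0.08 ± 0.20.

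The chromosomal passenger complex, which corrects wrong attachments at the centromere and later marks the division plane, had 3 of 3 members called lower, of which Birc5 held its call in every fit. Birc5, its small subunit survivin, read 12.29 and 12.38 at day 0, 12.25 and 12.32 at day 1 and 11.47 and 11.85 at day 3. Days 0 and 1 overlapped and day 3 was below both. The fall was 0.67 ± 0.12 on the log2 scale, 1.60-fold (adjusted p = 5.3e-05), and both other probes for Birc5 were also called lower. Aurkb, the kinase of the complex, read 9.95 and 10.14 at day 0 and 9.76 and 9.67 at day 3, a change of -0.33 ± 0.13 (adjusted p = 0.0492). Incenp, the scaffold that binds Aurkb, changed by -0.30 ± 0.12 (adjusted p = 0.0497). These last calls sat at the threshold, and each was lost in 3 of the 4 fits that left out 1 array and in 4 of the 7 other settings.

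In the checkpoint, Mad2l1, which binds and sequesters Cdc20, read 7.51 and 7.80 at day 0 and 6.93 and 7.17 at day 3. It fell by 0.61 ± 0.17 on the log2 scale (adjusted p = 0.0079). Bub1b, its partner in the inhibitory complex, fell by 0.40 ± 0.15 on the log2 scale (adjusted p = 0.035), a call lost in all 4 fits that left out 1 array. The others did not pass the test. Bub1, the kinase that recruits checkpoint proteins to kinetochores, read 5.18 and 5.63 at day 0 and 5.57 and 5.54 at day 3, and changed by 0.15 ± 0.19. Bub3, the adaptor that brings Bub1 and Bub1b to kinetochores, read 9.66 and 9.74 at day 0 and 9.72 and 9.58 at day 3, and changed by -0.05 ± 0.12. Ttk, the kinase that starts the checkpoint signal, changed by -0.26 ± 0.18.

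Of the 5 kinetochore and centromere members 0 were called, and their changes ran from -0.34 for Ndc80 to -0.13 for Cenpe, all below 0. Tpx2, which activates Aurka on the spindle, read 9.64 and 9.70 at day 0 and 9.14 and 9.13 at day 3. The groups were far apart relative to their replicates, and the fall was 0.54 ± 0.13 on the log2 scale (adjusted p = 0.0023). Top2a, the topoisomerase that untangles chromatids, read 11.93 and 11.85 at day 0 and 12.17 and 12.07 at day 3. It lay higher on both day 3 arrays, with a change of 0.22 ± 0.11 that did not pass (adjusted p = 0.11). Pttg1 read 6.87 and 6.87 at day 0, 6.66 and 6.57 at day 1 and 6.06 and 6.37 at day 3. The arrays stepped down from day to day, and the fall by day 3 was 0.65 ± 0.19 on the log2 scale (adjusted p = 0.0078). Without replicate 1 of day 3 the adjusted p was 0.11. Cdc20, the activator of the anaphase-promoting complex, read 12.52 and 12.75 at day 0 and 12.54 and 12.69 at day 3, a change of -0.02 ± 0.11. Kif23, a motor of the central spindle, fell by 0.61 ± 0.16 on the log2 scale (adjusted p = 0.0040), but its other probe changed by -0.07. The cytokinesis genes Prc1, Ect2 and Anln changed by -0.13 ± 0.11, 0.15 ± 0.14 and 0.06 ± 0.10.

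With CsA present, 0 members were called at day 1 of LIF withdrawal (2 at an unadjusted p under 0.05), against 4.54% of all genes, 2.34% higher and 2.19% lower. Of all 10980 genes, 1541 had an unadjusted p under 0.05 there. At day 3 with CsA, 4 members had fallen (Nuf2, Aurkb, Birc5 and Bub3) and 1 had risen (Anln). Among all genes 29.6% were called, 14.6% lower and 14.9% higher, so the share of members lower, 14.8%, was near that background. The median change was -0.08 among members and -0.01 among all genes. Leaving out replicate 2 of either CsA group took the count of 5 to 3.

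Nuf2 read 7.08 and 7.19 at day 0 with CsA, 6.62 and 7.08 at day 1 and 6.49 and 6.25 at day 3. Day 3 lay below both earlier days, and the fall from day 0 was 0.77 ± 0.17 on the log2 scale (adjusted p = 0.0018). Aurkb read 9.78 and 9.68 at day 0, 9.66 and 9.81 at day 1 and 9.37 and 9.04 at day 3. Days 0 and 1 overlapped and day 3 was lower, with a fall of 0.52 ± 0.13 on the log2 scale (adjusted p = 0.0040) that was not called without replicate 2 of day 3 (adjusted p = 0.088). Birc5 read 11.94 and 11.96 at day 0, 11.86 and 12.10 at day 1 and 11.36 and 11.53 at day 3. It fell by 0.51 ± 0.12 on the log2 scale (adjusted p = 0.0018), and both other probes were called lower too. Bub3 fell by 0.50 ± 0.12 on the log2 scale (adjusted p = 0.0039), and without replicate 2 of day 0 its adjusted p was 0.099.

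Anln, the cleavage furrow scaffold anillin, read 12.29 and 12.31 at day 0 with CsA and 12.59 and 12.56 at day 3. It was higher on both day 3 arrays, by 0.27 ± 0.10 (adjusted p = 0.041), but its other probe changed by -0.41 and was not called, and the mean of both probes changed by -0.07. The call was also lost in all 4 fits that left out 1 array. Genes called lower without CsA but not with it included Cdc25c, at -0.22 ± 0.13 with CsA, Tpx2 at -0.08 ± 0.13 and Pttg1 at -0.04 ± 0.19. The difference between the courses was tested for each member as the CsA by day interaction.

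At day 1 that interaction was called for 0 of 27 members by limma, 0 also had an unadjusted p under 0.05, and 0.0729% of all genes were called, 0.0546% lower and 0.0182% higher. At day 3 it was called for 1 member, Spc25, against 15.3% of all genes, 7.99% higher and 7.3% lower. Spc25, a subunit of the Ndc80 complex that anchors it to the inner kinetochore, read 9.05 and 9.14 at day 0 and 8.72 and 8.91 at day 3 without CsA. With CsA it read 8.49 and 8.58 at day 0 and 8.92 and 8.87 at day 3. It was thus lower at day 3 without CsA and higher at day 3 with it, by -0.28 ± 0.14 (adjusted p = 0.11) and 0.36 ± 0.14 (adjusted p = 0.053), neither called by itself. The interaction was 0.64 ± 0.20 (adjusted p = 0.027). It was lost in 5 of the 8 fits that left out 1 of its arrays, with adjusted p up to 0.11. For Cdc25c the interaction was 0.54 ± 0.19 (adjusted p = 0.054), for Pttg1 0.61 ± 0.26 (adjusted p = 0.13) and for Nuf2 -0.58 ± 0.25 (adjusted p = 0.12). The members' median interaction at day 3 was 0.15, against 0.02 for all genes.

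**Figure D3:**
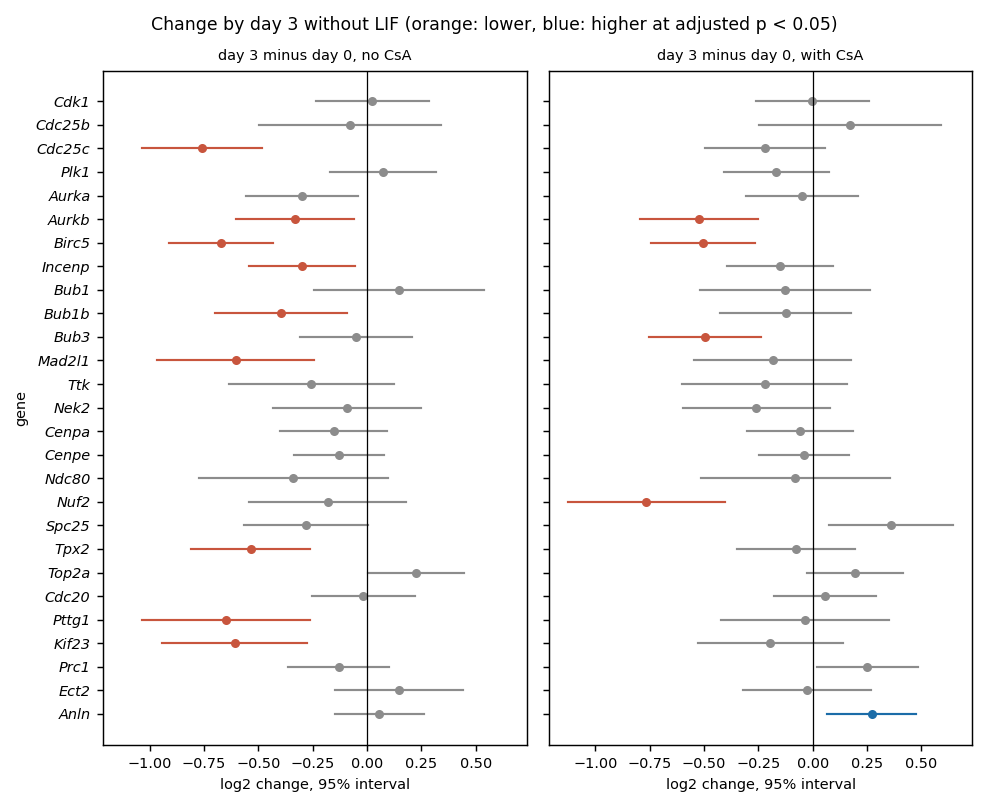
Change from day 0 to day 3 of LIF withdrawal for each of the 27 genes without CsA (left) and with CsA (right), as log2 differences with 95% intervals. Genes called lower (9 and 4) are orange and the gene called higher with CsA is blue.

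Cells with CsA had lower levels of several mitotic genes at each day, and 0 members were called higher at any of them. By the brightest probe and with all arrays, the share of members lower was above that of all genes at days 0 and 1. At day 3 it was near it, at 22.2% against 19.1%. At day 0, 7 members were lower. These were Bub3, Spc25, Cdk1, Cdc20, Tpx2, Birc5 and Incenp, by 1.30-fold to 1.86-fold. The share lower was 25.9% of members, against 6.99% of all genes lower, 6.17% higher and 13.2% in either direction. The median difference was -0.25 among members and -0.02 among all genes, and 25 of 27 members were below 0. Of all 10980 genes, 5845 were below 0. Both CsA arrays lay below both arrays without CsA for 21 members and above for 0, against 28.6% and 24.2% of all genes. Single arrays weighed on this count, which was 4 without replicate 1 and 2 without replicate 2 of the group without CsA, and 1 without replicate 1 and 3 without replicate 2 of the CsA group.

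At day 1, 6 members were lower with CsA (22.2%), against 5.34% of all genes lower, 5.42% higher and 10.8% in either direction. They were Bub3, Nuf2, Tpx2, Incenp, Plk1 and Nek2, and the Nek2 probe was undetected on all 4 arrays, so it gives no fold. The Nek2 probe was kept only through deltaCnA cells at day 0, and its call was lost in 4 of 7 alternative settings. It carries no weight here, though the count of 6 and the 22.2% include it. The median difference was -0.22 among members and -0.002 among all genes, and the CsA arrays were lower without overlap for 17 members and higher for 0, against 26.7% and 26.4% of all genes. Without replicate 1 or replicate 2 of the group without CsA the count was 2 or 3, and without replicate 1 of the CsA group it was 1. At day 3, 6 members were lower (22.2%), namely Bub3, Nuf2, Cdk1, Aurkb, Plk1 and Cdc20. It compares with 19.1% of all genes lower, 19% higher and 38.1% in either direction, and the median difference was -0.04 among members and 0.01 among all genes. By the mean of a gene's probes the count at day 3 was 9, with Birc5, Top2a and the mostly undetected Nek2 added, and 2100 of all genes were lower. By the brightest probe, differences of 14 members lay below 0 and of 13 above, and of all 10980 genes 5412 lay below and 5568 above. The CsA arrays were lower without overlap for 11 members and higher for 5, against 32.9% and 33.95% of all genes. In all, by the brightest probe, 11 members, the undetected Nek2 among them, were lower with CsA on 1 or more days. Of these, 7 were lower on 2 or more days and 1, Bub3, on all 3 days. The matching shares of all genes were not computed, so these pooled counts have no background beside them. The 3 days have separate arrays on both sides.

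Bub3 differed most. Without CsA it read 9.66 and 9.74 at day 0, 9.78 and 9.82 at day 1 and 9.72 and 9.58 at day 3. With CsA it read 8.67 and 8.95, then 8.82 and 8.90, then 8.26 and 8.36. All 6 CsA arrays lay below all 6 arrays without CsA. The difference was -0.89 ± 0.12 at day 0 (1.86-fold lower, adjusted p = 7.7e-05), -0.94 ± 0.12 at day 1 (1.92-fold lower, adjusted p = 3.5e-05) and -1.34 ± 0.12 at day 3 (2.53-fold lower, adjusted p = 1.4e-08). It held in every fit run, while the other 2 probes for Bub3 were detected on 4 and 0 arrays and were not used. Other checkpoint members gave no called difference apart from Nek2 at day 1. Bub1 read 5.62 and 5.58 with CsA at day 0, 5.47 and 5.52 at day 1 and 5.57 and 5.38 at day 3, within the range of the arrays without CsA. Mad2l1 differed by -0.33 ± 0.17, -0.29 ± 0.17 and 0.09 ± 0.17 over the 3 days, and Bub1b by -0.02 ± 0.15, -0.08 ± 0.15 and 0.25 ± 0.15.

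In the kinetochore, Nuf2 without CsA read 7.49 and 7.47 at day 0, 7.54 and 7.80 at day 1 and 7.19 and 7.41 at day 3. Its CsA arrays, given above, were lower at every day without overlap. The difference was -0.35 ± 0.17 at day 0 (adjusted p = 0.20), -0.82 ± 0.17 at day 1 (adjusted p = 0.0033) and -0.93 ± 0.17 at day 3 (1.91-fold lower, adjusted p = 0.00017). At day 1 the call was lost without replicate 1 of the CsA group (adjusted p = 0.11) or replicate 2 of the other (0.059). Spc25 was lower with CsA at day 0, by 0.56 ± 0.14 on the log2 scale (adjusted p = 0.0093), a call lost in 2 of the 4 fits that left out 1 array. It differed by -0.42 ± 0.14 at day 1 (adjusted p = 0.053) and 0.08 ± 0.14 at day 3. Ndc80, the subunit that gives their complex its name, differed by -0.59 ± 0.21 at day 0 (adjusted p = 0.068). Cenpa, the centromeric histone, and Cenpe lay between -0.17 and 0.07 over the 3 days by their brightest probes. The other kept probe for Cenpa differed by 0.30, 0.14 and 0.40, and at day 3 it was called higher (p of 0.035, adjusted over all kept probes).

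Among the entry kinases, Cdk1 with CsA read 11.30 and 11.60 at day 0, 11.61 and 11.81 at day 1 and 11.50 and 11.40 at day 3. The lowest array without CsA, 11.77, was below 1 of these 6. Cdk1 was lower by 0.51 ± 0.13 on the log2 scale at day 0 (adjusted p = 0.010), differed by -0.28 ± 0.13 at day 1 (adjusted p = 0.17) and was lower by 0.53 ± 0.13 on the log2 scale at day 3 (adjusted p = 0.0016). The day 0 call was lost when replicate 2 of the untreated group (adjusted p = 0.19) or replicate 1 of the treated group (0.18) was left out, and the day 3 call held in every fit. Plk1 read 12.27 and 12.42, then 12.34 and 12.55, then 12.08 and 12.27 with CsA. It lay below the arrays without CsA at every day, with differences of -0.20 ± 0.12 at day 0, -0.38 ± 0.12 at day 1 (adjusted p = 0.039) and -0.44 ± 0.12 at day 3 (adjusted p = 0.0044). The Plk1 call was lost in 3 of the 4 fits that left out 1 array at day 1, and in 2 of 4 at day 3. Aurka read 12.06 and 11.97, then 11.99 and 12.13, then 12.04 and 11.89 with CsA, and differed by -0.24 ± 0.12, -0.10 ± 0.12 and 0.01 ± 0.12, none called.

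Of the 3 passenger complex members, 2 were lower with CsA at day 0, 1 at day 1 and 1 at day 3. Birc5 differed by -0.38 ± 0.12 at day 0 (adjusted p = 0.031), -0.31 ± 0.12 at day 1 (adjusted p = 0.089) and -0.22 ± 0.12 at day 3 (adjusted p = 0.15). Both other Birc5 probes were called lower at day 3, by -0.40 and -0.46 (adjusted p = 0.013 and 0.0051 over all kept probes), and the mean of the 3 probes was called lower at day 1 (-0.34, adjusted p = 0.045) and day 3 (-0.36, adjusted p = 0.012). Aurkb differed by -0.32 ± 0.13, -0.27 ± 0.13 and -0.51 ± 0.13, and only the last was called (adjusted p = 0.0034). Incenp differed by -0.38 ± 0.12 at day 0 (adjusted p = 0.037), -0.44 ± 0.12 at day 1 (adjusted p = 0.019) and -0.23 ± 0.12 at day 3. Tpx2 was lower at day 0, by 0.40 ± 0.13 on the log2 scale (adjusted p = 0.047), and at day 1, by 0.46 ± 0.13 (adjusted p = 0.025), and differed by 0.06 ± 0.13 at day 3. Cdc20 with CsA read 12.20 and 12.24 at day 0, 12.29 and 12.35 at day 1 and 12.30 and 12.26 at day 3, against 12.36 to 12.75 without it. All 6 CsA arrays lay below all 6 others, with differences of -0.41 ± 0.11 at day 0 (adjusted p = 0.019), -0.20 ± 0.11 at day 1 (adjusted p = 0.30) and -0.34 ± 0.11 at day 3 (adjusted p = 0.021). The day 0 calls of Birc5 and Tpx2 were lost in all 4 fits that left out 1 array. Both calls of Incenp and both of Cdc20 were lost in 3 of 4 such fits. The call of Tpx2 at day 1 was lost in 2 of 4 and that of Aurkb at day 3 in 1 of 4. The other 2 Cdc20 probes differed at day 0 by -0.28 and -0.24, neither called. Top2a was not called by its brightest probe, with differences of -0.02 ± 0.11, -0.09 ± 0.11 and -0.04 ± 0.11. Its probes disagreed at day 3, where the other 2 differed by -0.53 and -0.42 (adjusted p = 0.049 and 0.054 over all kept probes) and the mean of the 3 was called lower (-0.33, adjusted p = 0.023).

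**Figure D4:**
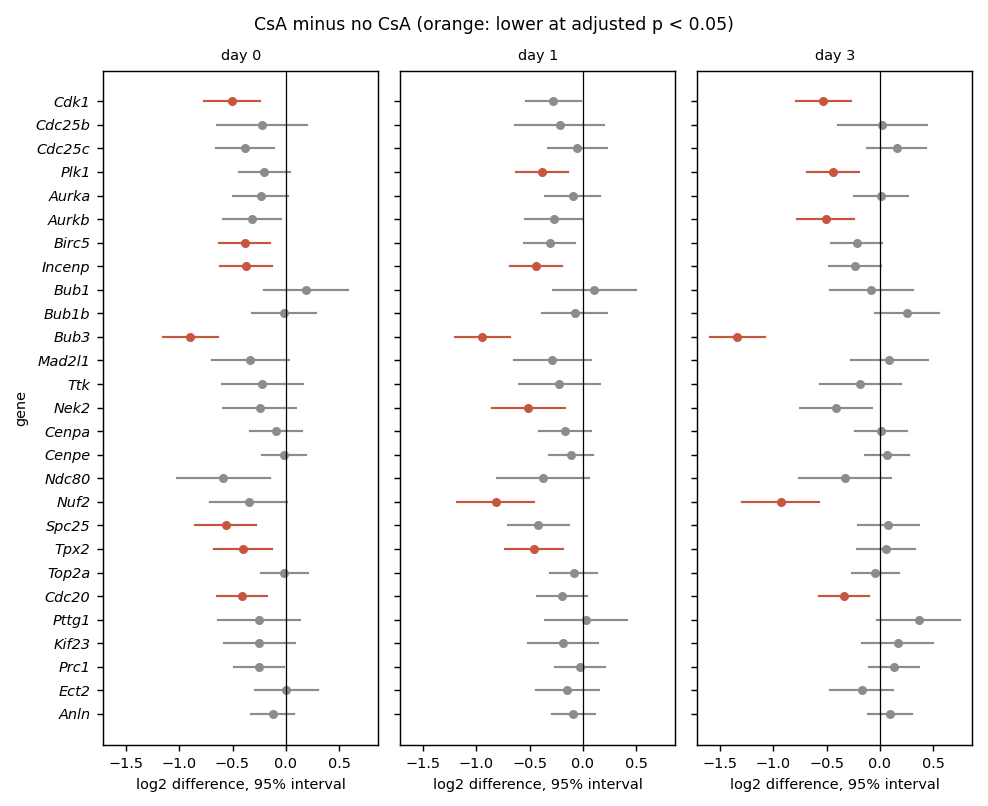
Difference between cells with and without CsA at days 0, 1 and 3 of LIF withdrawal for each of the 27 genes, as log2 differences with 95% intervals. Genes called lower are orange (7, 6 and 6, of which Nek2 at day 1 was undetected in both groups), and Bub3 is the leftmost at each day.

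On induction of deltaCnA 1 mitotic gene passed the test at day 1 and 0 at day 4. At day 1 of Tc withdrawal 1 member was higher and 0 lower, against 11.2% of all genes called, 6.54% higher and 4.63% lower. At day 4 limma called 0 members (1 at an unadjusted p under 0.05), against 3.42% of all genes, 2.65% higher and 0.774% lower. Of all 10980 genes, 1648 had an unadjusted p under 0.05 at day 4. The median changes of members were -0.05 and -0.01, and those of all genes 0.01 and 0.01. The member that rose was Nuf2. It read 7.19 and 7.28 at day 0, 8.05 and 7.89 at day 1 and 6.82 and 6.94 at day 4. Day 1 stood above and day 4 below day 0, with a rise of 0.74 ± 0.17 at day 1 (1.67-fold, adjusted p = 0.0082) and a change of -0.35 ± 0.17 at day 4 (adjusted p = 0.35). The call at day 1 was lost without either day 0 array or without replicate 1 of day 1, where the rise was 0.69, 0.79 and 0.66. Without replicate 2 of day 1 Ndc80 was also called, but as lower, with a change of -0.81. By the mean of its probes Cenpa was called higher at day 1 too (0.38, adjusted p = 0.030), while its brightest probe changed by 0.15 ± 0.12.

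None of the other central mitotic genes passed the test over the deltaCnA course. Cdk1 read 11.61 and 11.68 at day 0, 11.70 and 11.71 at day 1 and 11.60 and 11.55 at day 4. Plk1 read 12.42 and 12.36, then 12.27 and 12.42, then 12.47 and 12.22. Aurka read 12.25 and 11.99, then 12.004 and 12.16, then 12.24 and 12.06. Each kinase had an interval of its day 4 change that included 0, of -0.33 to 0.19 for Cdk1, -0.28 to 0.20 for Plk1 and -0.23 to 0.29 for Aurka. Aurkb read 9.92 and 9.82, then 9.97 and 9.74, then 9.76 and 9.78. Birc5 read 12.05 and 12.04 at day 0, 12.30 and 12.30 at day 1 and 12.10 and 12.02 at day 4. Its day 1 arrays stood above the others, by 0.26 ± 0.12 over day 0 (adjusted p = 0.16). Bub1 read 5.52 and 5.83, then 5.62 and 5.80, then 5.57 and 5.64. Cdc20 read 12.46 and 12.39, then 12.55 and 12.57, then 12.62 and 12.38. Top2a read 12.10 and 11.95, then 12.04 and 11.87, then 11.89 and 11.93. The day 4 change was -0.07 ± 0.19 for Bub1, 0.07 ± 0.11 for Cdc20 and -0.12 ± 0.11 for Top2a. Bub3 read 9.64 and 9.64 at day 0, 9.44 and 9.57 at day 1 and 9.70 and 9.49 at day 4, which is above all CsA arrays of CGR8 cells.

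The uninduced deltaCnA line differed from CGR8 cells at day 0 in 4 members, all lower in the deltaCnA line. Line, Tc and the background of the arrays differed together here and cannot be told apart. The CGR8 arrays are the day 0 arrays of LIF withdrawal used above. Against these same arrays Pttg1, Mad2l1 and Kif23 were also called lower at day 3 of LIF withdrawal, and Spc25 with CsA at day 0. Among all genes 17.4% were called, 10.8% lower and 6.65% higher, and the share of members lower was 14.8%. The median difference was -0.14 among members and -0.01 among all genes. Pttg1 read 5.49 and 5.82 in the deltaCnA line and 6.87 and 6.87 in CGR8 cells. It was lower by 1.21 ± 0.19 on the log2 scale, 2.32-fold (adjusted p = 9.8e-05), and stayed at 5.81 and 5.71 at day 1 and 5.40 and 5.46 at day 4. Mad2l1 read 6.86 and 6.73 against 7.51 and 7.80, lower by 0.86 ± 0.17 on the log2 scale (adjusted p = 0.0014), and was 7.42 and 7.05 at day 1 and 7.02 and 6.94 at day 4 of induction. Spc25 read 8.58 and 8.26 against 9.05 and 9.14, lower by 0.68 ± 0.14 on the log2 scale (adjusted p = 0.0014), and Kif23 was lower by 0.63 ± 0.16 on the log2 scale (adjusted p = 0.0085), though its other probe differed by -0.03. By the mean of its probes Birc5 was lower as well (-0.44, adjusted p = 0.0077), against -0.29 ± 0.12 by its brightest probe. Without replicate 2 of the deltaCnA day 0 group the count was 2, and Spc25 (adjusted p = 0.055) and Kif23 (0.17) were not called.

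**Figure D5:**
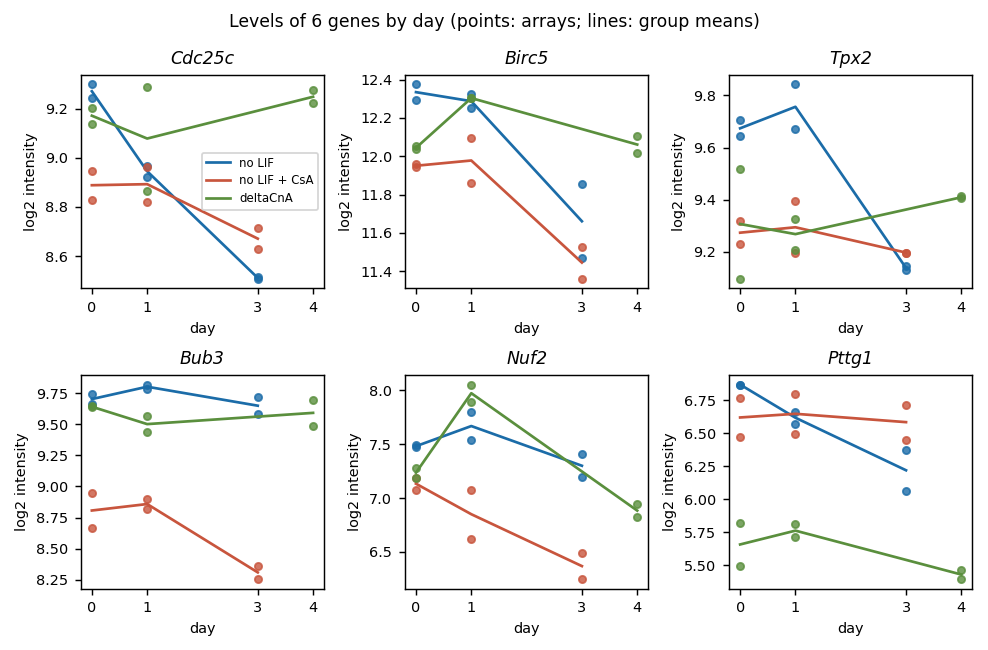
Log2 intensity by day for 6 genes in the 3 courses, with points for arrays and lines through group means. Cdc25c, Birc5 and Tpx2 fall by day 3 without LIF, Bub3 is lower throughout with CsA, Nuf2 is lowest at day 3 with CsA and highest at day 1 of deltaCnA induction, and Pttg1 is lowest in the deltaCnA line.

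Nek2 lay near background in most groups. Its probe read 5.30 and 5.41 at day 0 of the deltaCnA course, the only arrays on which it was detected, and between 4.43 and 5.15 on the others. No fold is given for it.

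The other genes of the same processes, from lists that hold none of the members, changed to different degrees. At day 3 of LIF withdrawal, 17 of 35 measured spindle, centrosome and cytokinesis genes fell and 1 rose, 12 of 33 kinetochore and centromere genes fell, and 4 of 19 genes of mitotic entry and its transcription fell. Those with the largest falls were Stmn1, a microtubule destabiliser, by 1.41 ± 0.22 on the log2 scale, Cep55, which acts in the final cut between daughter cells, by 1.22 ± 0.18, the centromere proteins Cenpx by 1.65 ± 0.19 and Cenpm by 1.06 ± 0.12, and Mybl2, a transcription factor of late cell cycle genes, by 1.15 ± 0.12. Of 16 genes of the anaphase-promoting complex 3 fell, of 17 cohesin and condensin genes 1 fell and 1 rose, and of 42 DNA replication genes 15 fell and 0 rose. Among all genes 19.8% fell and 18.4% rose. The shares that fell in the entry list (21.1%) and the anaphase-promoting complex (18.8%) were near that background. The lists' median changes were -0.33 for both the spindle and the entry list, -0.25 for kinetochore, -0.23 for the anaphase-promoting complex, -0.15 for cohesin and condensin and -0.26 for DNA replication, beside -0.05 for all genes. At day 1, when 8.42% of all genes were called, the only one called was Pcnt, a scaffold of the centrosome, at -0.56 ± 0.15.

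With CsA at day 0, 4 of 19 entry genes, 3 of 33 kinetochore genes, 4 of 35 spindle genes, 1 of 16 genes of the anaphase-promoting complex, 0 of 17 cohesin and condensin genes and 12 of 42 DNA replication genes were lower, and 0 of any of these lists were higher. Among all genes 6.99% were lower and 6.17% higher. At day 1 the counts lower were 2, 3, 1, 1, 0 and 11, again with 0 higher, against 5.34% of all genes lower and 5.42% higher. E2f7, a repressor in the E2F family, was lower by 0.66 ± 0.21 on the log2 scale at day 0, 0.89 ± 0.21 at day 1 and 1.26 ± 0.21 at day 3. Tk1, the thymidine kinase of S phase, was lower by 0.59 ± 0.15, 0.60 ± 0.15 and 0.79 ± 0.15. At day 3 some genes were higher with CsA, 2 of the entry, 2 of the kinetochore, 4 of the spindle, 4 of the anaphase-promoting complex and 3 of the cohesin and condensin lists. Mybl2 was higher by 1.10 ± 0.12, Cep55 by 0.93 ± 0.18 and Cenpx by 1.19 ± 0.19. The counts lower at day 3 were 5, 6, 4, 4 and 0 in the same order, and 18 of 42 DNA replication genes were lower with 0 higher. Of all genes, 19.1% were lower and 19% higher with CsA at that day. At day 3 of LIF withdrawal with CsA, the counts lower were 3, 8, 6, 1, 0 and 18 and the counts higher 0, 1, 1, 3, 2 and 0, in the order of these 6 lists. The shares of all genes were 14.6% lower and 14.9% higher. Foxm1, a transcription factor that drives many late cell cycle genes, changed by -0.19 ± 0.14 at day 3 of LIF withdrawal and was called only with CsA at day 3, where it was lower by 0.48 ± 0.14 on the log2 scale (adjusted p = 0.0080). Mki67 was not analysed here.

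In the day 3 interaction Mybl2 had a value of 1.09 ± 0.17 (adjusted p = 8.5e-05) and Stmn1 of 1.38 ± 0.31 (adjusted p = 0.0034), both higher with CsA relative to their course without it. On induction of deltaCnA, Chek1, a checkpoint kinase of replication stress, was lower at day 1 by 0.75 ± 0.17 on the log2 scale and Cenpx higher by 1.01 ± 0.19. The counts at day 1, in the order of the 6 lists, were 4, 3, 3, 1, 0 and 2 lower and 1, 1, 2, 2, 1 and 1 higher. Among all genes 4.63% were lower and 6.54% higher at that day. At day 4 limma called 0 in every list, against 3.42% of all genes. There 3, 5, 4, 1, 1 and 1 genes of the lists had an unadjusted p under 0.05, as had 1648 of all 10980 genes. In the uninduced deltaCnA line the counts were 1, 6, 4, 3, 0 and 5 lower and 1, 2, 3, 0, 2 and 0 higher than in CGR8 cells. The shares of all genes were 10.8% lower and 6.65% higher.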

How the data were processed

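The authors' deposited table, which its header calls non-normalized, gives a linear intensity for each probe and array. Beside it stands the authors' detection p-value, the probe's rank among negative controls. Between 31.1% and 35.2% of values on an array were below 0, so a background had been subtracted. The scanner software is not given in the sources used here. Per the labels' protocols, total RNA came from Trizol extraction, and an Ambion MessageAmp kit gave the biotinylated cRNA. The series matrix, of linear intensity values deposited by the authors, served as an alternative.

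From the intensities, background was corrected with normexp on the detection p-values (limma 3.58.1, R 4.3.3, offset 16), arrays were quantile normalized and values taken to log2. The filter on detection (p under 0.05 on both arrays of a group) kept 21691 of 46632 probes. The platform annotation gave a single symbol to 29976 of all probes, several to 10 and none to 16646. Each gene was read from its brightest kept probe. A model of 9 group means over 18 arrays, with 9 residual degrees of freedom, was fitted with lmFit and eBayes with trend, with Benjamini-Hochberg adjustment within each of 12 comparisons. The procedure was tested on simulated data.

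Groups and replicate numbers came from the sample titles. Values on each array are given for Cdk1, Ccnb1 (not analysed here), Plk1, Aurka, Aurkb, Birc5, Bub1, Cdc20, Pttg1 and Top2a and, per comparison and direction, for up to 3 called members with the largest change. Other lists give up to 3 called genes per direction, with Mki67 and Foxm1 always. The members, the lists and these rules were chosen with earlier results of these data known. Alternatives were other scalings, no further background correction, no detection filter, the series matrix, the mean of a gene's probes, replicate number as a block, and leaving out each array. Same-numbered arrays share only a number, and no source says that it marks a shared batch. Promoter sequences are RefSeq's, build GRCm38.p6.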

Additional observations from a re-analysis of the deposited data

Results flagged for a closer look

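For Spc25 the change from day 0 to day 3 of LIF withdrawal differed with CsA, by 0.64 ± 0.20 on the log2 scale (adjusted p = 0.027, limma interaction term). Group means went from 9.10 to 8.82 without CsA and from 8.53 to 8.90 with it. The call was lost in 5 of the 8 fits that left out 1 array of these groups, where the interaction ran from 0.55 to 0.74.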

How the results depend on the processing

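Over all alternatives 1 member reversed, Anln at day 3 with CsA, at -0.071 (adjusted p = 0.67) when the probes of a gene were averaged. Counts of members called that moved by over 1.5 times were, with median scaling over kept probes, 14 at day 3 of LIF withdrawal and 3 for the day 3 interaction. With median scaling over all probes, chosen after seeing the data, they were 2 at day 3 with CsA, 2 for CsA at day 0, 1 for CsA at day 1, 0 for the day 3 interaction and 2 for the deltaCnA line. Without a detection filter the count for CsA at day 0 was 4. Without further background correction, and with the series matrix, the counts were 2 at day 1 and 1 at day 4 of deltaCnA induction. The member added at each of these days was Nek2, called lower. Its probe was kept only because it was detected at day 0 of that course, so these calls carry no weight. With the mean of probes the count was 2 at day 1, with Cenpa added as higher. Leaving out 1 array in turn gave 0 to 0 members at day 1 of LIF withdrawal, with or without CsA, and for the day 1 interaction and day 4 of deltaCnA induction. It gave 4 to 8 at day 3 of LIF withdrawal, 3 to 4 at day 3 with CsA, 1 to 4, 1 to 5 and 4 to 6 for CsA at days 0, 1 and 3, 0 to 1 for the day 3 interaction, 0 to 2 at day 1 of deltaCnA induction and 2 to 5 for the deltaCnA line. A group left with 1 array is assumed to vary like the others.

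Deviations of same-numbered arrays correlated at r = 0.14 to 0.35 in all comparisons but that of the deltaCnA line with CGR8 cells, at -0.03. With 2 arrays per group and no label for what a number shares, they were not treated as pairs. With the replicate number as a block 0 calls were lost and 5 gained, and the count for the day 3 interaction was 2. The slide as a block was not run, because the headers name no BeadChip. Among all genes, the share of calls that were higher went from 48.2% to 35.2% at day 3 of LIF withdrawal, from 46.9% to 33.8% for CsA at day 0 and from 52.3% to 64.1% for the day 3 interaction with median scaling. With median scaling over all probes 130 of the calls at day 1 of LIF withdrawal were higher and 520 lower, in place of 44.3% higher, and the share went from 51.6% to 34.1% at day 1 with CsA, to 35.7% for CsA at day 0 and from 50.4% to 69.2% for CsA at day 1. That scaling put the median of all genes at -0.19 at day 1 of LIF withdrawal and at 0.15 for the day 1 interaction. The cause of these moves was not tested. Signal over background limits dim probes such as Nek2 and Bub1.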
